A study of Mus musculus with 4 samples.

Results

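The transcription factors that build and maintain heart muscle were followed in 4 Affymetrix MOE430v2 arrays of mouse embryonic ventricle, through every probe set whose platform gene symbol is Gata4, Gata5, Gata6, Nkx2-5, Tbx2, Tbx3, Tbx5, Tbx20, Hand1 or Hand2 and no other gene. That rule gave 24 probe sets for 10 genes, among 45037 probe sets and 18193 named genes on the array. The 2 WT arrays came from wild-type embryos and the 2 KO arrays from HDAC2-deficient littermates, all at embryonic day 17.5 and of C57BL/6 X SV129 strain, with tissue of 2 animals pooled for each WT array and of 3 for each KO array. The kind of Hdac2 allele and the sex of the embryos are not given here, and nothing in the labels says whether any animal entered more than 1 pool. A p-value here rests on the spread between pools alone, part of which may be technical. Through limma that spread is taken from all tested probe sets as well as from the probe set itself.

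GATA proteins are zinc finger factors that bind the letters GATA, Nkx2-5 is a homeodomain protein, the Tbx proteins share the T-box DNA-binding domain, and Hand1 and Hand2 are basic helix-loop-helix proteins that bind E-boxes as partners of E proteins. In the developing heart these factors bind one another and act together on genes of contraction, conduction and growth, with Tbx5, Gata4 and Nkx2-5 as activators of chamber genes and Tbx2 and Tbx3 as repressors of them in the conduction system and the atrioventricular canal. HDAC2 is a class I histone deacetylase, an enzyme of corepressor complexes, and the comparison asks whether the transcript levels of these factors differ in a ventricle that lacks it.

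Values are MAS5 signals, linear brightness values deposited with the same trimmed mean on every array, with a call of Present, Marginal or Absent for each probe set. Present calls were made for 42.4% to 43.8% of probe sets on the 4 arrays. A source label of the KO samples also names wild-type tissue, so Hdac2 was checked first: its brightest probe set, 1445684_s_at, read 1189 and 1421 on the WT arrays and 31.4 and 21.0 on the KO arrays, where it had no Present call, and was at least 50.6-fold lower in KO. The tissue label was checked against its markers: Myl2, the ventricular regulatory myosin light chain, read 14814 and 14823 in WT, with 14287 and 14917 in KO, and the summed signal of 8 markers of ventricular muscle was 70618 to 72061 in WT, with 69828 to 72304 in KO. Atrial markers were present too, with Myl7, the atrial regulatory light chain, at 5048 and 4714 in WT, with 5157 and 5661 in KO. The summed signal of 9 skeletal muscle markers was 8528 and 8144 in WT, with 222 and 264 in KO, while Myod1, Myog, Myf5 and Myf6 had no Present call on any array. The ratio of the 3' to the 5' control probe set of actin, which rises as RNA is degraded, was 1.85 and 2.32 in WT, with 2.75 and 2.42 in KO.

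Of the 24 probe sets, 14 were Present on both arrays of WT, of KO or of both genotypes and were tested, and they covered 8 genes. All 14 were Present on both WT arrays, and 12 were Present on all 4 arrays. Gata5 and Tbx5 had no tested probe set. Of the 14 tested, 1 passed the threshold in limma, a Gata4 probe set that was lower in KO (adjusted p under 0.05 over the 19065 probe sets tested across the array), and 0 were higher. Across the array 1.34% of tested probe sets passed, 0.96% lower and 0.383% higher in KO. At an unadjusted p under 0.05 there were 4, all lower in KO (28.6%, against 15.5% of all tested, 8.23% lower and 7.29% higher). Both KO arrays lay below both WT arrays at 8 of the 14, against 22.5% of all tested probe sets, and above them at 2, against 25%. The 8 came from 7 of the 8 genes tested, with 2 of them from Gata6, and Gata4, Gata6, Tbx3 and Hand2 each had another tested probe set at which the arrays overlapped. The median log2 difference of the 14, KO minus WT, was -0.11, and that of all tested probe sets was 0.014. The median size of the difference regardless of sign was 0.20 for the 14 and 0.19 for all tested.

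**Figure D1:**
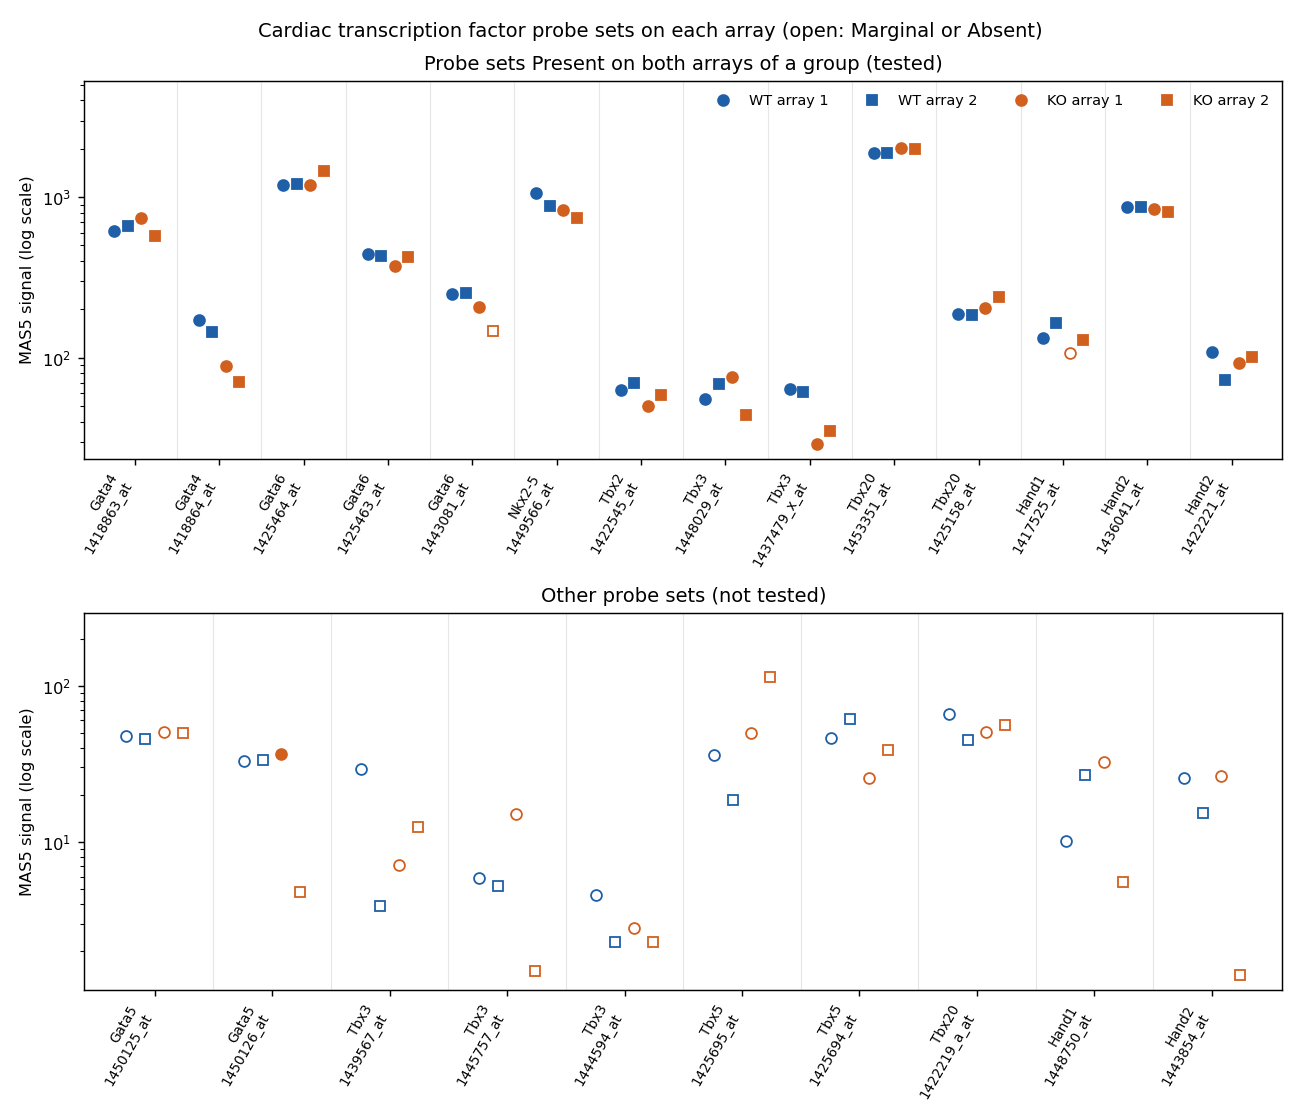
MAS5 signal (log scale) of each of the 24 probe sets on the 2 WT arrays (blue) and the 2 KO arrays (orange), tested probe sets above and the others below, with open symbols for Marginal or Absent calls. At Gata4 1418864_at the KO arrays, at 89.0 and 70.7, lie below the WT arrays, at 173 and 145, while at Gata4 1418863_at the groups overlap; heights of different probe sets are not comparable.

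Gata4, a GATA factor needed for heart tube formation and for the growth of heart muscle cells, gave a different answer at each of its 2 probe sets, which the platform assigns to the same transcript record. The brighter, 1418863_at, read 619 and 659 in WT, with 738 and 569 in KO. The highest and the lowest of these values both belong to KO arrays, and the difference was 0.021 ± 0.14 on the log2 scale (moderated SE, n = 2 arrays per group; adjusted p = 0.958 in limma), with a 95% confidence interval of -0.28 to 0.33. The dimmer, 1418864_at, read 173 and 145 in WT, with 89.0 and 70.7 in KO, and was Present on all 4 arrays. Both KO values lay under both WT values, and the probe set fell by 1.00 ± 0.21 on the log2 scale (adjusted p = 0.0376 in limma), which is 2.00-fold lower with an interval of 1.45-fold to 2.75-fold. The limma call did not hold when WT replicate 1 (adjusted p = 0.231) or KO replicate 2 (0.129) was left out, nor with quantile normalization, no filter on detection or no variance trend, and over all alternatives the adjusted p ran from 0.00363 to 0.519. In the deposited signal log ratio, which compares each array with an unnamed baseline array, the same probe set stood at 4.7 and 4.8 in WT and at 4.6 and 3.8 in KO, so that on this scale KO array 1 lay close to the WT arrays.

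The 2 Gata4 probe sets were also compared within each array. The signal of 1418864_at divided by that of 1418863_at was 0.279 and 0.221 in WT, with 0.121 and 0.124 in KO, and the groups did not overlap. Across the array, 4107 genes had 2 or more tested probe sets, and of the 6485 dimmer probe sets compared with the brightest of their gene, 1.62% had a gap in KO minus WT as low as that of Gata4, or lower. The median of those gaps was -0.062, and 58.6% were negative. The position of each probe set on the transcript was not analysed here. The actin 3' to 5' ratio was higher on both KO arrays and the skeletal muscle markers were lower on both, and their part in the Gata4 difference was not tested.

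Gata6, a close relative with overlapping function in the heart, had 3 tested probe sets that also differed among themselves. The brightest, 1425464_at, read 1182 and 1204 in WT, with 1198 and 1464 in KO, a difference of 0.15 ± 0.12 (adjusted p = 0.575). Probe set 1425463_at read 440.1 and 428 in WT, with 373 and 423 in KO, both under the WT values, for a difference of -0.13 ± 0.14 (adjusted p = 0.695). The dimmest, 1443081_at, read 248 and 252 in WT, with 207 and 147 in KO, where the lower value was called Marginal. Its difference of -0.52 ± 0.19 did not pass (adjusted p = 0.210 in limma), but it passed without KO replicate 1 (adjusted p = 0.0434), and the range over alternatives was 0.0434 to 0.582. Relative to 1425464_at on the same array, 1443081_at stood at 0.210 and 0.2095 in WT and at 0.173 and 0.101 in KO, and 6.71% of dimmer probe sets across the array had a gap this low or lower.

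Gata5, which is known from the endocardium and from early heart development, was Present on 1 of the 4 arrays at 1 of its 2 probe sets and on none at the other. Probe set 1450125_at was Absent on all 4 arrays, at signals of 47.4 and 45.9 in WT, with 50.7 and 49.6 in KO. Probe set 1450126_at was Present on KO array 1 alone, at 36.5, and read 33.1 and 33.4 in WT and 4.8 on KO array 2. No difference can be read from either, and Gata5 was not tested.

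**Figure D2:**
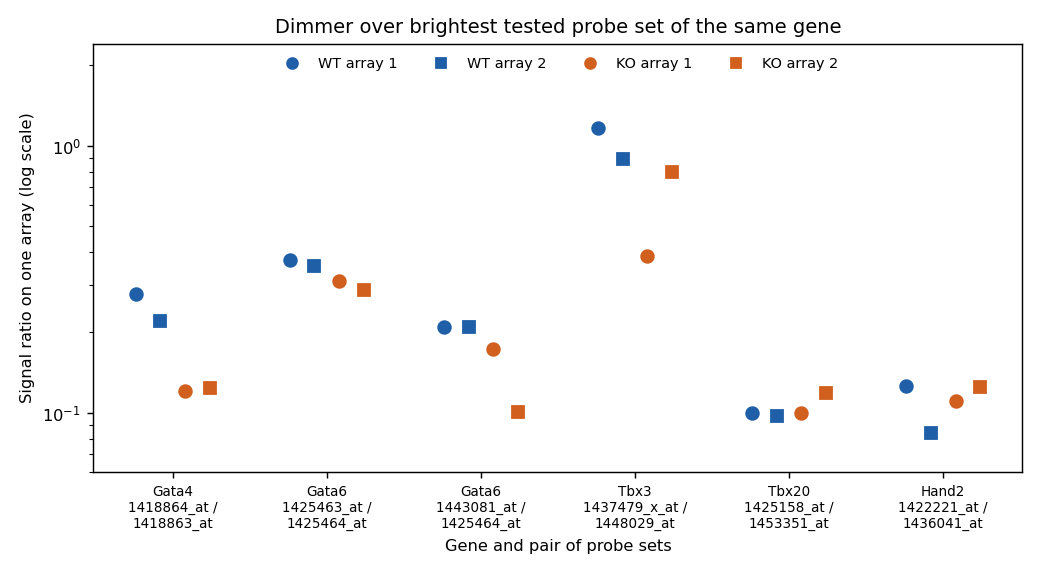
Signal of a dimmer tested probe set divided by that of the brightest tested probe set of the same gene (log scale), for each of the 4 arrays. The Gata4 ratio is 0.221 to 0.279 in WT and 0.121 to 0.124 in KO, and the WT and KO ratios overlap for Tbx20 and Hand2.

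Nkx2-5, the homeodomain factor that marks heart muscle cells from the first cardiac progenitors on, has a single probe set. 1449566_at was Present on all 4 arrays and read 1059 and 885 in WT, with 832 and 739.5 in KO. Both KO values lay under both WT values, but the nearest values of the groups were closer together than the pair of values within either group. The difference was -0.30 ± 0.13 (unadjusted p = 0.0333, adjusted p = 0.280 in limma), with a 95% interval of -0.58 to -0.028, which as a percentage is -33.0% to -1.91%. In the signal log ratio the groups were the same, at 5.0 and 4.7 in WT and at 5.0 and 4.7 in KO. The 250 bases before the start of Nkx2-5 are shown because it is one of the 3 tested members with an entry in the RefSeq promoter table (GRCm38.p6), which held 4 of the 10 genes; they lie at chr17:26841566-26841815 on the minus strand and are written 5′ to 3′ along the gene, with the match to the E-box letters CANNTG in capitals.
Nkx2-5: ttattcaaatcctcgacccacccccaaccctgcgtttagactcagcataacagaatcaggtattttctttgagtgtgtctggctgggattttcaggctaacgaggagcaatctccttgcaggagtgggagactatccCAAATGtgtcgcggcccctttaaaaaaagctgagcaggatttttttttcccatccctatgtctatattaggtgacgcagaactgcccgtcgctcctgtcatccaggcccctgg

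Hand2, the basic helix-loop-helix factor of the right ventricle and of the limb and neural crest, had 2 tested probe sets, and neither passed. Its brightest probe set, 1436041_at, read 866 and 867 in WT, with 839.6 and 807 in KO. Both KO values were a little lower, and their difference of -0.074 ± 0.11 missed the threshold (adjusted p = 0.798 in limma), with an interval of -0.32 to 0.17. Probe set 1422221_at read 109 and 73.1 in WT, with 93.2 and 101 in KO, so the KO values lay between the WT values (0.12 ± 0.24, adjusted p = 0.855). On the log2 scale the WT values were 0.58 apart, more than at any other tested member probe set. Probe set 1443854_at was Absent on all 4 arrays, at 1.4 to 26.3. The window before the Hand2 start, chr8:57320733-57320982 on the plus strand (GRCm38.p6, RefSeq), is shown because it was the 1 window among the 4 with a match to the GATA letters AGATAA, on the opposite strand and so written TTATCT, 172 bases before the start; capitals mark this match and the 2 matches to CANNTG.
Hand2: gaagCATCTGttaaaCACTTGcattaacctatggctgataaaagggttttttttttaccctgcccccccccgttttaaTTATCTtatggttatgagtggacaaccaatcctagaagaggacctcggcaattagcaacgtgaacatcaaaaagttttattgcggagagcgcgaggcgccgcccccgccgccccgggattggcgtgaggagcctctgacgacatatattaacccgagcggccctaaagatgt

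Both strands were searched for the letters AGATAA for GATA factors, TNAAGTG for Nkx factors, AGGTGTGA for T-box factors and CANNTG for E-boxes, of which the Nkx and E-box letters can share bases. The search gave 1 E-box match in the Nkx2-5 window, 1 in the Gata5 window, and none of the 4 motifs in the Tbx20 window. Over all 32851 windows of the table, 9.99% held AGATAA, 10.1% TNAAGTG, 1.12% AGGTGTGA and 66.2% CANNTG. These matches are letters in a short window only, and no binding was measured.

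Hand1, the Hand factor of the left ventricle and the outer curvature, read 133 and 164 in WT, with 107 and 129.6 in KO, at 1417525_at, which was Marginal on KO array 1. Both KO values were under both WT values by a small margin, and a difference of -0.33 ± 0.20 missed the threshold (adjusted p = 0.460 in limma), with an interval of -0.76 to 0.11. Its other probe set, 1448750_at, was Absent on all 4 arrays, at 5.5 to 32.5.

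Tbx20, a T-box factor of chamber muscle and valves, was higher on both KO arrays at both tested probe sets without passing the test. Probe set 1453351_at read 1872 and 1883 in WT, with 2034 and 1997 in KO (0.10 ± 0.098, adjusted p = 0.654), and the gap between the groups was wider than the gap within either. Probe set 1425158_at read 188 and 183 in WT, with 203 and 238 in KO (0.25 ± 0.17, adjusted p = 0.505). These were the 2 tested member probe sets at which both KO arrays lay above both WT arrays, against the background of 25% given above. Probe set 1422219_a_at, at 44.9 to 66.3, was Marginal on KO array 2 and Absent elsewhere.

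Tbx2 and Tbx3, the repressors, had no probe set that passed the test, and the intervals of their differences were wide. Tbx2 has a single probe set, 1422545_at, Present on all 4 arrays, which read 63.1 and 69.2 in WT, with 50.2 and 58.6 in KO (-0.28 ± 0.26, adjusted p = 0.636). Tbx3 has 5 probe sets, of which 2 were tested. At 1437479_x_at it read 64.3 and 61.1 in WT, with 29.1 and 35.0 in KO, and was Present on all 4 arrays. The groups were well apart here, and the difference of -0.97 ± 0.30 had an unadjusted p = 0.00576 and an adjusted p = 0.136 in limma, which does not pass. At 1448029_at the signals were 55.1 and 68.5 in WT, with 75.6 and 44.0 in KO, so the highest and the lowest were both in KO (-0.091 ± 0.30, adjusted p = 0.919). The name ending _x_at is the platform's mark for a probe set whose probes may also bind other transcripts. The other 3 Tbx3 probe sets were Absent on all 4 arrays, at 1.5 to 29.1.

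The ratio of 1437479_x_at to 1448029_at was 1.17 and 0.892 in WT, with 0.385 and 0.795 in KO. Of the dimmer probe sets across the array, 2.81% had a gap this low or lower. In the signal log ratio 1437479_x_at stood at 0.9 and 1.0 in WT and at 0.6 and 0.8 in KO, a difference of -0.25. Tbx3 marks the conduction system, and the summed signal of 6 markers of conduction tissue on the array was 1982 and 2017 in WT, with 1805 and 1596 in KO. Gja5, Cntn2 and Isl1 were never Present. Kcne1 alone made up most of that sum, at 1743 and 1724 in WT, with 1535 and 1326 in KO. Its direction was the opposite in the signal log ratio, at 7.9 and 7.7 in WT and at 8.2 and 8.1 in KO. Shox2, the other marker tested, overlapped between the groups. The part of these markers in the Tbx3 values was not tested. In bulk tissue, fewer cells of a type and less RNA per cell cannot be told apart.

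Tbx5, the T-box factor of the atria and the left ventricle, was Absent at both probe sets on all 4 arrays. Probe set 1425694_at read 46.3 and 60.9 in WT, with 25.6 and 38.9 in KO, and 1425695_at read 36.2 and 18.6 in WT, with 50.0 and 113 in KO, so their directions were opposite. Both probe sets derive from the same sequence record, and an Absent call at these probes does not show that the gene is silent.

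**Figure D3:**
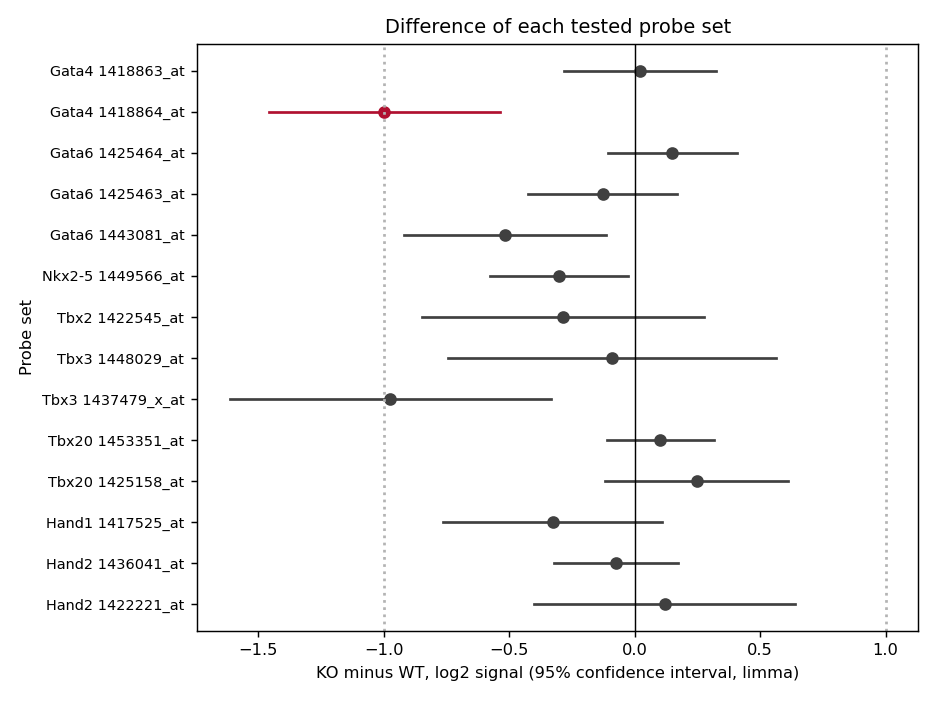
Difference in log2 signal, KO minus WT, of the 14 tested probe sets (points) with 95% confidence intervals from limma (lines); the probe set that passed the adjusted threshold is in red and dotted lines mark 2-fold. The intervals of 12 probe sets lie inside 2-fold either way, those of Gata4 1418864_at and Tbx3 1437479_x_at being the exceptions.

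The intervals say how large a change these arrays leave room for. At the brightest tested or single probe set of Gata4, Gata6, Nkx2-5, Tbx20 and Hand2, the 95% interval of the difference lay inside 1.5-fold in either direction, and this held for 6 of the 14 probe sets in all, the sixth being Gata6 1425463_at. The intervals of Tbx2, Hand1 and the 2 Tbx3 probe sets were wider, from -0.85 to 0.28 for Tbx2 and from -0.75 to 0.56 for Tbx3 1448029_at. Dimmer probe sets of the other genes also reached past 1.5-fold. Gata4 1418864_at left room for a signal 1.45-fold to 2.75-fold lower in KO, and Gata6 1443081_at for 1.08-fold to 1.89-fold lower. The interval reached 0.61 at Tbx20 1425158_at and 0.64 at Hand2 1422221_at. These intervals are not adjusted for the number of probe sets. With 1 probe set per gene, the brightest tested, 0 of the 8 genes passed in limma, against 1.3% of 10184 genes, and 1 of them, Nkx2-5, had an unadjusted p under 0.05, as did 15.6% of the 10184. When the tested probe sets of a gene were averaged, 0 of the 8 passed as well, with Gata4 at -0.49 ± 0.15 (adjusted p = 0.173).

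The deposited signal log ratio places the members against the unnamed baseline array. On a log2 scale, 13 of the 14 tested probe sets were above the baseline on all 4 arrays, as were 59.3% of all tested probe sets, and the exception was Tbx3 1448029_at, at -0.4 to -0.9. The median over the members of the WT mean was 3.43, against 0.85 for all tested. Hand2 1436041_at stood highest, at 8.7 and 8.4 in WT, with 9.0 and 8.2 in KO, above 99.6% of tested probe sets in the WT mean. Tbx20 1453351_at followed at 6.6 and 6.8 in WT, with 6.7 and 6.8 in KO, and Gata4 1418863_at stood at 3.1 and 2.9 in WT, with 3.0 and 2.8 in KO. The ratios of these 3 probe sets overlapped between the groups, but not those of every member. Both KO ratios lay below both WT ratios at Gata4 1418864_at, Gata6 1443081_at, Tbx2 1422545_at, Tbx3 1437479_x_at and Hand1 1417525_at. They lay above at Gata6 1425463_at and Tbx20 1425158_at. The share of all tested probe sets without overlap on this scale is not given here, so these lists describe the members only. No member probe set passed the adjusted threshold in limma on this scale. Only 1 of all tested probe sets did, against 256 on the signals, so a call lost on this scale says little about a single probe set. A ratio against a baseline near 0 signal is large whatever the level, and the tissue of the baseline array is not known here.

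**Figure D4:**
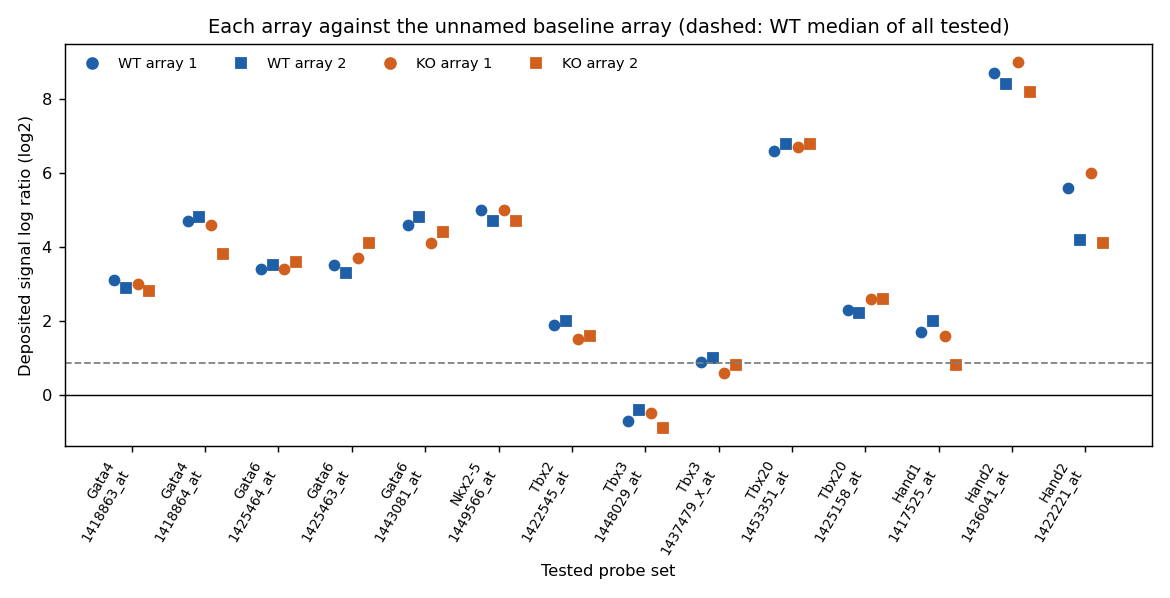
Deposited signal log ratio (log2) of the 14 tested probe sets on each array against the baseline array, with 0 as a solid line and the WT median of all tested probe sets, 0.85, as a dashed line. Hand2 1436041_at lies between 8.2 and 9.0 on all 4 arrays, and Tbx3 1448029_at is the 1 probe set below 0.

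The relatives of these factors were followed next. Of 8 relatives of the GATA factors, 5 were tested and 0 passed in limma, with 1 at unadjusted p under 0.05, Trps1, a repressor with a GATA-type zinc finger (118 and 128.5 in WT, 75.5 and 86.4 in KO, -0.61 ± 0.21, adjusted p = 0.197); its other 3 tested probe sets stood at -0.094 to 0.18. Gata3 was never Present. Of 13 other Nkx genes, 11 were on the array and none of these had a Present call on any array. Of 13 other T-box genes, 4 were tested and 0 passed, nor was any at unadjusted p under 0.05, and Tbx18, a gene of the epicardium, had the smallest p (195 and 203 in WT, 259 and 220.2 in KO, 0.26 ± 0.17, adjusted p = 0.465). At the other Tbx18 probe set, 1449871_at, the groups overlapped (-0.14 ± 0.28). Of 9 relatives of Hand and E proteins, 7 were tested and 0 passed, with none at unadjusted p under 0.05, and Twist1, a repressor of muscle differentiation, had the smallest p (37.6 and 41.6 in WT, 25.8 and 25.3 in KO, -0.63 ± 0.34, adjusted p = 0.400).

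Among 32 partners and other cardiac transcription factors, 27 were tested, 1 was higher in KO in limma and 0 lower, with a median log2 difference of 0.011. At unadjusted p under 0.05, 5 of the 27 were higher and 3 lower, against 15.6% of genes across the array in either direction. The gene past the adjusted threshold was Mycn, a growth-promoting Myc family factor of the embryonic ventricle and a known target of repression by Tbx2. Among 39 target genes of contraction, conduction and growth, 31 were tested, 1 was higher, which is Mycn again, and 1 was lower, with a median of -0.023. At unadjusted p under 0.05, 2 of the 31 were higher and 4 lower, against the same 15.6%. Over all 110 genes of these lists, 2 of the 70 tested passed (2.86%, against 1.3% of genes across the array) and 13 were at unadjusted p under 0.05 (18.6%, against 15.6%).

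Mycn read 248 and 217 in WT, with 348 and 418 in KO at 1417155_at and rose by 0.72 ± 0.16 on the log2 scale (adjusted p = 0.0434 in limma). Both KO values lay above both WT values. Its other 2 probe sets were never Present. The call did not hold when WT replicate 1 (adjusted p = 0.0636), WT replicate 2 (0.175) or KO replicate 2 (0.167) was left out, nor with quantile normalization, no filter, no variance trend or the signal log ratio (range over alternatives 0.00462 to 0.353). The window before the Mycn start, chr12:12941837-12942086 on the minus strand (GRCm38.p6, RefSeq), is shown because Mycn is the target that rose; of the 4 motifs it held only CANNTG, in capitals.
Mycn: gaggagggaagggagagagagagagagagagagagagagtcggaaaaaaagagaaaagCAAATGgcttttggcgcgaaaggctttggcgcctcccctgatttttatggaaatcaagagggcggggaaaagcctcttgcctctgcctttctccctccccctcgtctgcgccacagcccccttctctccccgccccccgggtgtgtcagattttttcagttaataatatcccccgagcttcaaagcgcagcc

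The target that fell was Ccnd2, cyclin D2, which drives cells into the cell cycle and is known as a target of GATA4. Its brightest probe set, 1434745_at, read 1831 and 1746 in WT, with 1265 and 1293 in KO, a fall of 0.48 ± 0.10 on the log2 scale (adjusted p = 0.0374 in limma). Of the 7 Ccnd2 probe sets, 5 were tested, and both KO arrays lay below both WT arrays at all 5, with differences from -0.26 to -0.48, of which the other 4 did not pass. The call at 1434745_at did not hold when WT replicate 1 (adjusted p = 0.277) or WT replicate 2 (0.115) was left out, nor with no filter, no variance trend or the signal log ratio (range over alternatives 0.00873 to 0.353).

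Of the 35 genes of the target list with a window in the promoter table, 10 held AGATAA (28.6%, against 11.4% of all genes in the table) and 2 held TNAAGTG (5.71%, against 11.4%). The T-box letters AGGTGTGA were in 2 (5.71%, against 1.3%) and CANNTG in 26 (74.3%, against 69.3%). Ccnd2 was not among the 35.

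The target best known for this group of factors, Nppa, the atrial natriuretic peptide gene that Gata4, Nkx2-5 and Tbx5 activate together, read 8197 and 7785 in WT, with 7733 and 9721 in KO. The groups overlapped (0.12 ± 0.10, adjusted p = 0.620). Gja1, the ventricular gap junction gene that Tbx2 and Tbx3 repress, read 6318 and 6139 in WT, with 6047 and 6210.3 in KO (-0.023 ± 0.085, adjusted p = 0.926), again with overlap. Both genes were chosen after their values were seen, and they do not stand for the whole list. Of the 31 targets tested, 4 were lower and 2 higher in KO at unadjusted p under 0.05 in limma. Across the array 15.6% of genes were, in either direction.

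**Figure D5:**
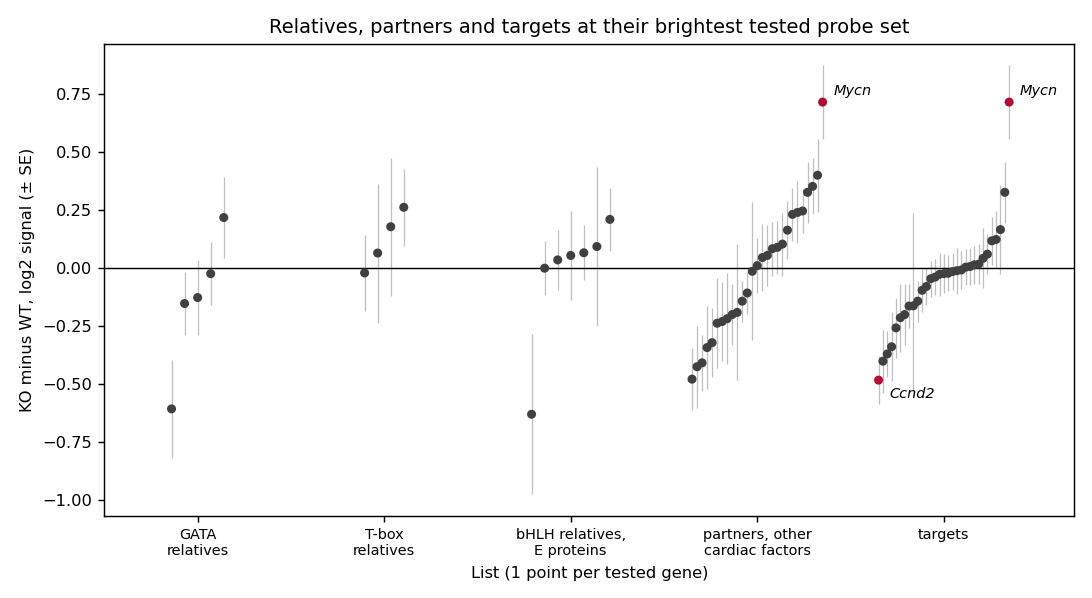
Difference in log2 signal, KO minus WT, of each tested gene of 5 lists at its brightest tested probe set, with bars of 1 SE; genes past the adjusted threshold are in red. Mycn, at 0.72, is on 2 of the lists, and Ccnd2, at -0.48, is on the target list.

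Markers of cells that could hold the members' transcripts were compared as well. Of the 8 ventricular muscle markers tested, 0 passed in limma, and 1, Irx4, a ventricular transcription factor, had an unadjusted p under 0.05 (0.33 ± 0.13, adjusted p = 0.260). Of 5 atrial markers tested, Sln, a calcium pump inhibitor that skeletal muscle also makes, was the 1 that fell in limma (-0.84 ± 0.17, adjusted p = 0.0249). None of the 8 endothelial and endocardial, 8 epicardial, 2 conduction or 2 sympathetic neuron markers tested passed; the smallest p in each belonged to Kdr (0.46 ± 0.16, adjusted p = 0.187), Tbx18 (given above), Kcne1 (-0.28 ± 0.11, adjusted p = 0.246) and Phox2a (-0.77 ± 0.36, adjusted p = 0.320), and at unadjusted p under 0.05 there were 1, 0, 1 and 1. Summed endothelial signals were 2661 and 2669 in WT, with 2633 and 2999 in KO, and summed epicardial signals were 1622 and 1588 in WT, with 1700.5 and 1532 in KO. Of 7 fibroblast and valve markers tested, Col1a1, a type I collagen chain, was the 1 that fell (-0.73 ± 0.10, adjusted p = 0.00199), the median of the list was 0.027, and 1 marker, Pdgfra, stood higher at an unadjusted p under 0.05 (0.52 ± 0.17, adjusted p = 0.162 in limma). The Sln and Col1a1 calls did not hold with no filter (limma adjusted p = 0.305 and 0.0618), no variance trend (0.289 and 0.178) or the signal log ratio (0.353 for both). The other Col1a1 probe set, 1455494_at, was lower on both KO arrays without passing (-0.38 ± 0.12, adjusted p = 0.172 in limma). Of 3 erythroid markers tested, Hbb-y, an embryonic globin, was the 1 that rose, from 22.6 and 11.8 to 58.8 and 57.3 at 1436717_x_at (adjusted p = 0.0376 in limma), where WT array 2 was Absent, and that call did not hold when WT replicate 2, KO replicate 1 or KO replicate 2 was left out (0.0982, 0.0710 and 0.121), nor with no filter, no variance trend or the signal log ratio (0.353, 0.173 and 0.362). Another of the 3, Epor, the erythropoietin receptor, stood lower at an unadjusted p under 0.05 (-0.72 ± 0.33, adjusted p = 0.313 in limma). A further tested Hbb-y probe set, 1436823_x_at, read 9.8 and 18.8 in WT, both Absent, with 77.2 and 55.6 in KO (adjusted p = 0.0128 in limma). Hbb-y 1450621_a_at was Absent on all 4 arrays. Pdgfra and Epor were named after their values were seen. All 5 skeletal muscle markers tested, Mylpf, Tnnt3, Myh3, Myh8 and Tnnc2, fell, and no lung epithelial marker was Present.

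Over the 4 arrays, the tested probe sets whose course was most like that of Gata4 1418864_at, by the root mean square difference of log2 signals after each probe set was centred on its own mean, were those of Mau2 (0.024), Epha5 (0.060) and Fcsk (0.061). None of the 3 passed the adjusted threshold. Of the 16668 probe sets compared, 22 lay within 0.1 of the Gata4 probe set.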

How the data were processed

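RNA of pooled E17.5 ventricles was labelled with biotin from 6 µg of total RNA per array and read on Affymetrix MOE430v2 arrays. The authors deposited a signal for each probe set, an intensity on a linear scale; the submitters' processing notes name MAS5, whose version is not given here. Per the file headers, each signal has a detection p-value behind its call and a signal log ratio, taken here as log2, against a baseline array that is not named. The 2%-trimmed mean of the deposited signals was 150 on each array, and no scaling was added. The deposited table of the whole series held the same values.

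Of 45101 probe sets, 64 controls were left out. Genes were named from the platform's annotation, which names 1 gene for 34945 probe sets, several for 932 and lists none for 9160, and symbols were updated with RefSeq's gene table of GRCm38.p6. The 19065 probe sets that were Present on every array of WT, of KO or of both were fitted on log2 signal with limma 3.58.1 in R 4.3.3 (lmFit, then eBayes with a variance trend), with genotype as the sole factor and the 4 signals of 0 set to 0.1. Two-sided p-values were adjusted after Benjamini and Hochberg over the 19065. Differences are KO minus WT ± the moderated SE. For a group without Present calls, each dim array counts in the fold at its own signal or at the lowest signal it called Present, whichever is higher. The log2 values are averaged by group. The fit was tested on simulated data. An exact permutation test of 2 arrays against 2 cannot go below p = 0.333 and was not used.

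The members, the lists of relatives, partners, targets and markers, and the tests were chosen with earlier results of these data known. Named are every probe set of the members and, in each list, the genes past the threshold or, with none, the one with the smallest p, at the brightest tested probe set; Nppa, Gja1, Pdgfra and Epor are exceptions, named after their values were seen. The fit was repeated with quantile normalization, median centring, an offset of 16 or 64, no detection filter, a filter of Present on each of the 4 arrays, no trend in eBayes, a robust prior, the signal log ratio, the title number as a block, the mean over a gene's probe sets, and each array left out. The number of arrays limits the precision.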

Additional observations from a re-analysis of the deposited data

How the results depend on the processing

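The precision is limited by having 2 arrays a group and the SE was largest at both Tbx3 probe sets, Tbx2 and the dimmer Hand2 probe set. Of 194 recomputed member differences, 175 kept their direction and their side of the threshold, 1 was 0 (Nkx2-5 in the signal log ratio), 6 lost the threshold (all at Gata4 1418864_at), 1 gained it (Gata6 1443081_at without KO replicate 1) and 11 changed sign; the cause was not tested. The count of member probe sets past the threshold was 0 with quantile normalization, no filter on detection, no variance trend or the signal log ratio in place of 1, and 0 to 2 with 1 array left out. The Gata4 1418864_at adjusted p was 0.0556, 0.281, 0.180 and 0.519 under those 4. Over all tested probe sets the count was 37 without the filter, 23 without the trend, 1 with the signal log ratio, 721 with the replicate block and 163 to 650 with 1 array left out, against 256. Of the relatives, partners and targets, 1 passed with quantile normalization, 0 without the filter, without the trend or with the signal log ratio, 4 with the replicate block and 0 to 3 with 1 array left out, against 2. The count of member genes stayed at 0 under every alternative run. Gata4 1418863_at turned to -0.016 with quantile normalization, -0.0099 with median centring, -0.10 in the signal log ratio, -0.024 without WT replicate 1 and -0.17 without KO replicate 1, and with 1 array left out it ran from -0.17 to 0.21. Gata6 1425463_at turned to 0.50 and Hand2 1436041_at to 0.050 in the signal log ratio. Tbx3 1448029_at turned to 0.043 with quantile normalization, 0.066 without WT replicate 2 and 0.30 without KO replicate 2 (range with 1 array left out -0.48 to 0.30), and Hand2 1422221_at to -0.17 without WT replicate 2 (range -0.17 to 0.41). In the signal log ratio Tbx18 turned to -0.40, Kcne1 to 0.35 and Kdr to -0.10. The titles number the arrays 1A and 2A in WT and 1B and 2B in KO, and no label states whether equal numbers mark a pair. Deviations from the group mean of same-numbered arrays correlated at -0.011. The block left 1 member probe set past the threshold, as without it, with Gata4 1418864_at at an adjusted p = 0.00363 in limma. A filter of Present on all 4 arrays leaves no value for Gata6 1443081_at and Hand1.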
